A study of Danio rerio with 16 samples.

Results

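Crystallins are the abundant, long-lived soluble proteins of the eye lens. Alpha crystallins belong to the small heat shock protein family and act as chaperones, whereas beta and gamma crystallins are built from Greek key domains and pack densely in the lens fibre cells. Fish lenses carry an expanded set of gamma M crystallins, which are rich in methionine, and the lens forms early, so that its fibre cells are already producing crystallins in the larva. The genes described here were those whose symbol began with cryaa, cryab, cryba, crybb, crybg or cryg and whose mean level over the samples was at least 5 normalized counts, which leaves out the cryptochromes. Of 22994 genes, 52 matched by symbol and 49 were kept: 2 alpha, 7 acidic beta, 4 basic beta, 31 gamma M, 2 gamma N and 3 genes of the crybg group. The gamma M genes included the 21 genes of the crygm2d series. The 3 genes left out were CRYBB2 at a mean of 3.29, CRYBB3 at 1.35 and crygm1 at 1.85, and the lowest that were kept were crygm7 at 6.91 and crygm3 at 8.29. In the crybg group, crybg1a and crybg1b matched by name only. These genes code for large proteins that share the beta-gamma fold and are related to AIM1 of mammals, and they are not lens structural proteins.

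RNA-seq was carried out on 16 samples of 10 whole zebrafish larvae at 5 dpf. Larvae were wild type (WT) or homozygous for a frameshift allele of klf9 (klf9-/-), a glucocorticoid-induced transcription factor gene, and both came from sibling parents of the AB strain background. From 4 hpf they developed with vehicle (DMSO) or 1 µM cortisol under 14 h of light and 10 h of dark per day, and 4 replicates were taken for each of the 4 conditions. Each condition was 1 dish, so the replicates are samples of that dish, and p-values measure only the spread between them. Replicates 1 and 2 were extracted on day 1, with lysis buffer added to all 8 samples before any was homogenized. Replicates 3 and 4 were extracted on day 2, with each sample homogenized straight after the buffer went in. The samples extracted on day 2 had also been collected later, so collection order and preparation day cannot be told apart.

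Values are normalized counts, given for replicates 1 to 4 in that order. Quantile normalization had given every sample the same set of values with the same sum, 14653434 normalized counts, so sequencing depth is unknown and a level is in effect a rank. At the top of the range the ranks are coarse. In each sample the 180 genes at or above 10000 shared 18 values, counting values within 0.1% as one, and from 10000 to 50000 there were only 15 steps, which lay 0.07 to 0.37 apart on the log2 scale. CRYBB1 therefore took only 6 different values over the 16 samples. Levels are not compared between genes, because transcript lengths were not used. A mean served only to choose which genes to keep or to name, and sums and shares only to compare samples. Counts of klf9 were 165 to 274 in vehicle-treated WT, 330 to 511 in cortisol-treated WT, 78 to 135 in vehicle-treated klf9-/- and 106 to 136 in cortisol-treated klf9-/- larvae, so the genotypes did not overlap. Lens markers outside the crystallin family were measured too: bfsp2, a beaded filament protein of fibre cells, ran from 462 to 1221 and lim2.1, a fibre cell membrane protein, from 218 to 395, while foxe3, a transcription factor of the lens epithelium, ran from 0 to 13.

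The 49 crystallin genes together made up 0.998% to 2.07% of all normalized counts. Their sum was 283203, 236138, 214644 and 298534 in vehicle-treated WT, 191684, 180260, 204562 and 254298 in cortisol-treated WT, 263535, 146254, 297225 and 303654 in vehicle-treated klf9-/-, and 180752, 199063, 246113 and 300237 in cortisol-treated klf9-/- larvae. The ranges of all 4 conditions overlapped. Replicate 2 of vehicle-treated klf9-/- stood apart: its sum was the lowest of all 16 samples, it held the lowest value of its condition for 41 of the 49 genes, and it held the lowest value of all 16 samples for 22 of them, ties included. Medians over the crystallin genes for both days together that involve vehicle-treated klf9-/- larvae are therefore given with and without it. Differences of single genes and results of the other gene lists include it unless stated.

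**Figure D1:**
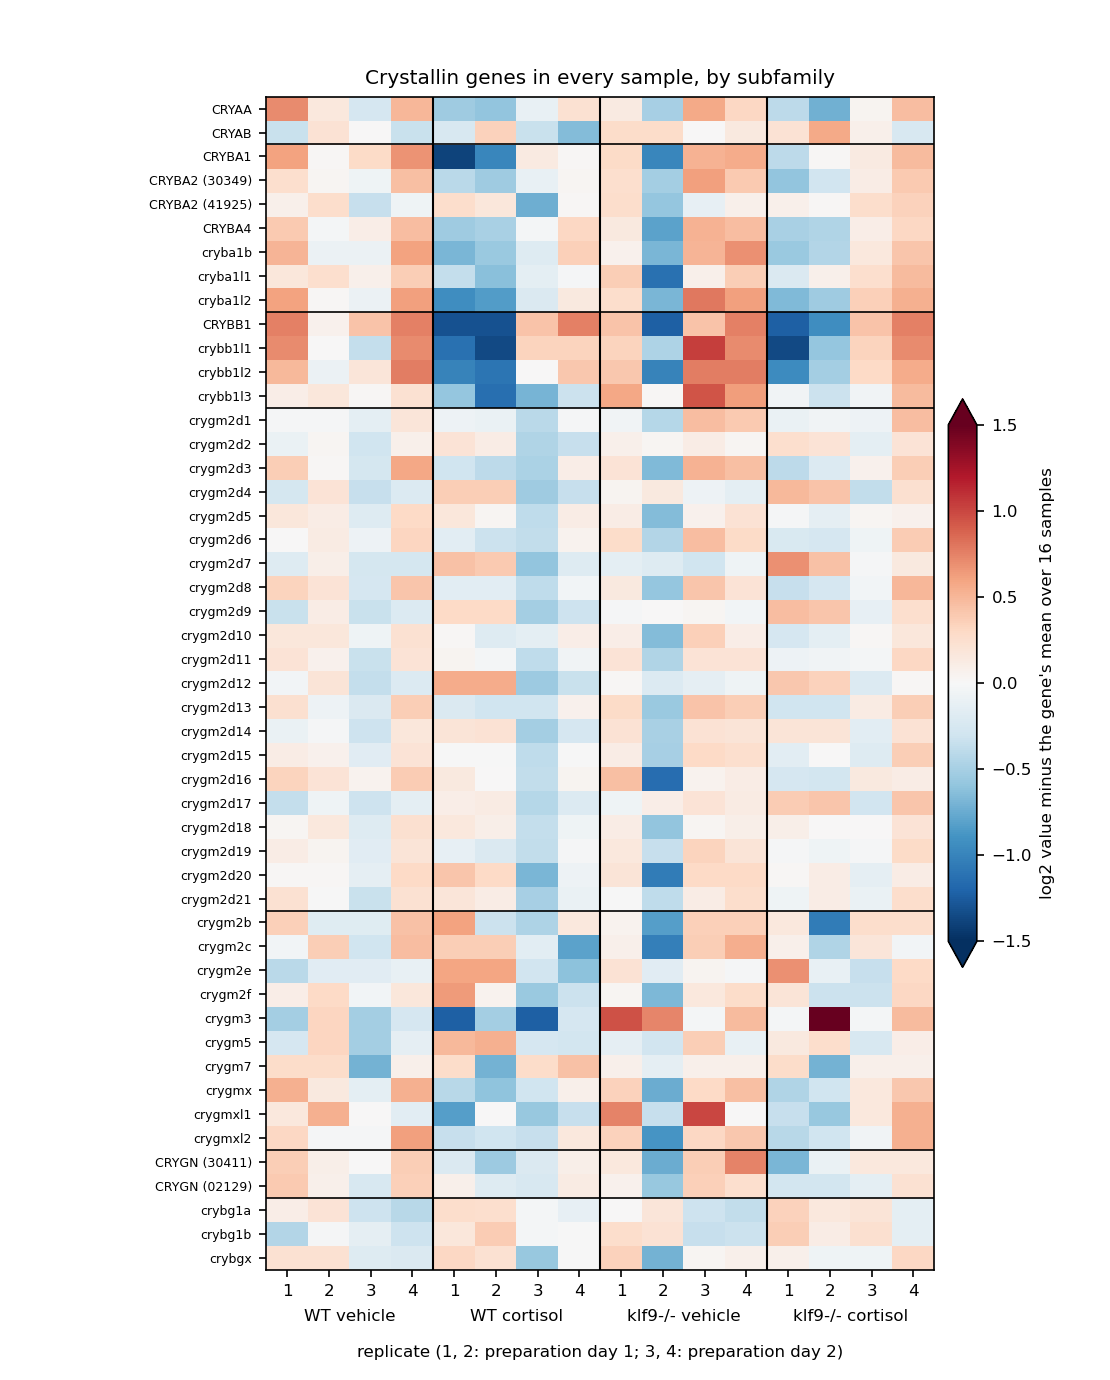
Each row is 1 crystallin gene and each column 1 sample, and the colour gives the log2 value minus that gene's mean over the 16 samples. The basic beta genes are low in replicates 1 and 2 of both cortisol conditions, and replicate 2 of vehicle-treated klf9-/- is low in most families.

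The summed beta and gamma M crystallins did not move alike in WT on day 1. In WT, the summed beta crystallins measured 146087 and 103980 with vehicle and 58936 and 55308 with cortisol on day 1, and 104346 and 151973 with vehicle and 109644 and 132659 with cortisol on day 2. The day 1 values separated the treatments and the day 2 values overlapped. Over the same samples the summed gamma M crystallins measured 112819 and 111227 with vehicle and 114381 and 109232 with cortisol on day 1, and 91630 and 123646 with vehicle and 78667 and 101472 with cortisol on day 2. On day 1 the crygm2d part of this sum was 103674 and 103862 with vehicle and 108589 and 103505 with cortisol. The 10 other gamma M genes summed to 9145 and 7365 with vehicle and 5792 and 5727 with cortisol. Gamma N summed to 18312 and 14951 with vehicle and 12205 and 9731 with cortisol. Both were thus lower with cortisol on day 1, as beta was, and overlapped on day 2. Of the WT crystallin sum, beta crystallins made up 51.6% and 44.0% in the day 1 vehicle samples. The share was 30.7% and 30.7% in the day 1 cortisol samples and 48.6% to 53.6% in all 4 WT samples of day 2. In klf9-/- larvae the beta share on day 1 was 47.8% and 38.7% with vehicle and 32.1% and 36.1% with cortisol, and on day 2 it was 50.3% to 50.5% in all 4 samples. These sums and shares are descriptions and were not tested. They compare samples and not families, because transcript lengths were not used. Genes with high values weigh most in them. CRYBB1 measured 47665 and 29419 with vehicle and 11412 and 11412 with cortisol in WT on day 1. The values of crybb1l1 there were 37956 and 23442 with vehicle and 10704 and 9122 with cortisol. Both genes lie at the coarse top of the range.

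**Figure D2:**
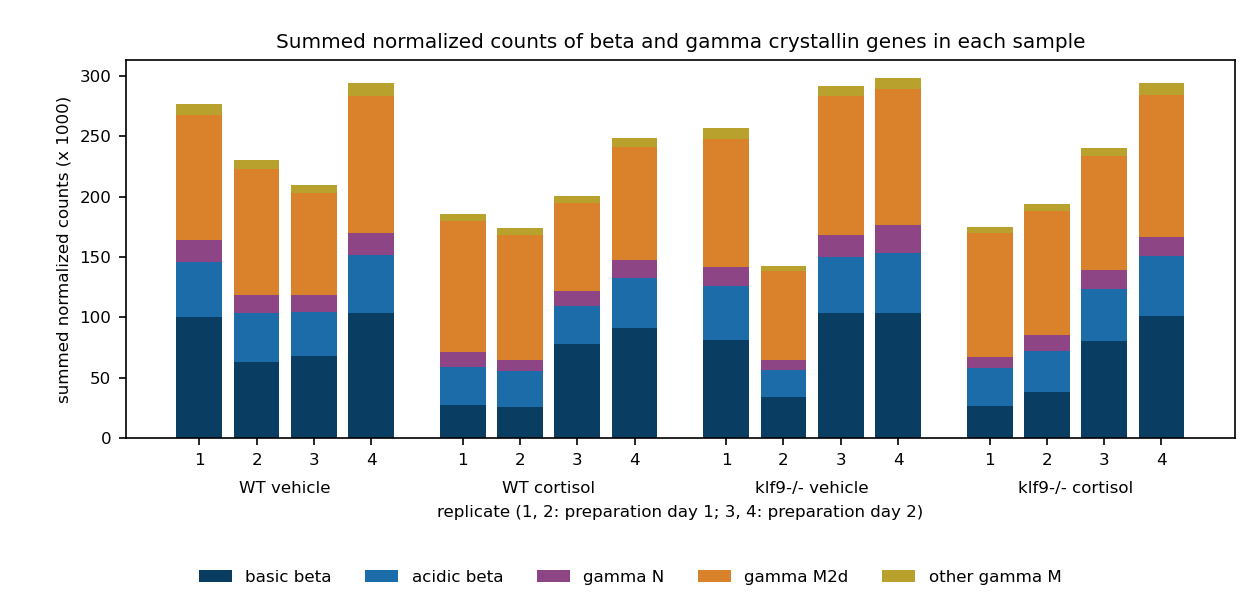
Stacked bars give the summed normalized counts (x 1000) of each beta and gamma crystallin family in each of the 16 samples. The basic beta part of the bar is 25509 to 37913 in the day 1 cortisol samples of both genotypes and in replicate 2 of vehicle-treated klf9-/- larvae, and 62896 to 103853 in the other 11 samples.

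To ask how chronic cortisol affected crystallin transcripts in WT larvae, the 2 treatments were compared with limma, with preparation day as a covariate and Benjamini-Hochberg adjustment over all 21511 genes tested, and a gene was called at an adjusted p under 0.05. Of the 49 crystallin genes, 0 were called higher and 2 were called lower, where 4.66% of all genes tested were called higher and 3.99% lower. The share of crystallins called was thus near the background. The median log2 difference of the 49 genes was -0.18, against -0.03 over all genes tested, and 39 of the 49 differences were negative. By family the medians were -0.79 for the 4 basic beta genes, -0.50 for the 7 acidic beta genes, -0.11 for the 21 crygm2d genes, -0.18 for the 10 other gamma M genes and 0.20 for the 3 crybg genes. All 11 beta crystallins had negative differences, where 54.2% of all genes tested were negative. An unadjusted p under 0.05 was found for 9 of the 11 beta genes, 1 of the 31 gamma M genes and 33.0% of all genes tested, and the difference between the families was not tested. These are RNA levels of whole larvae, in which fewer lens cells and less RNA per lens cell cannot be told apart.

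Both called genes were beta crystallins. The basic beta crystallin gene crybb1l3 (ENSDARG00000007655) measured 40, 42, 38 and 44 with vehicle and 25, 17, 23 and 30 with cortisol in WT larvae. All 4 cortisol-treated samples were below all 4 vehicle-treated samples, on both preparation days. Its log2 difference was -0.81 (SE 0.18, limma adjusted p = 0.018). Its klf9-/- values were 56, 38, 72 and 58 with vehicle and 36, 30, 36 and 52 with cortisol, with a log2 difference of -0.53 (SE 0.18, limma adjusted p = 0.078). There the groups overlapped over both days together, but cortisol lay below vehicle within each day. With cortisol, the values of crybb1l3 were higher in klf9-/- than in WT larvae in all 4 replicates, without reaching the threshold (log2 difference 0.69, SE 0.18, limma adjusted p = 0.060). The second gene, CRYBA1 (ENSDARG00000041141), codes for an acidic beta crystallin. It measured 36, 24, 29 and 38 with vehicle and 9, 12, 26 and 24 with cortisol in WT larvae, a log2 difference of -0.95 (SE 0.27, limma adjusted p = 0.045). The cortisol-treated samples were below the vehicle-treated samples of the same day on both days, and further below on day 1. CRYBA1 in klf9-/- larvae measured 29, 12, 34 and 35 with vehicle and 18, 24, 26 and 33 with cortisol, so the groups overlapped, and the log2 difference was -0.04 (SE 0.27, limma adjusted p = 0.94). That klf9-/- difference ran from -0.30 to 0.16 with 1 sample left out. The call of CRYBA1 was lost in 11 of the 16 fits that left out 1 sample, with adjusted p from 0.023 to 0.15, and that of crybb1l3 in 2 of 16, without replicate 1 of vehicle-treated WT (limma adjusted p = 0.060) or replicate 2 of cortisol-treated WT (limma adjusted p = 0.073).

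Values of CRYBB1 and crybb1l1 fell at the coarse top of the range. CRYBB1 (ENSDARG00000068507) measured 47665 and 29419 with vehicle and 11412 and 11412 with cortisol in the WT samples of day 1, and 37956 and 47665 with vehicle and 37956 and 47665 with cortisol on day 2. The treatments were fully apart on day 1 and identical on day 2. Its log2 difference over both days was -0.86 (SE 0.35, limma adjusted p = 0.11). CRYBB1 in klf9-/- larvae measured 37956 and 12088 with vehicle and 12088 and 14834 with cortisol on day 1, which overlapped, and 37956 and 47665 in both treatments on day 2. The gene crybb1l1 (ENSDARG00000007576) measured 37956 and 23442 with vehicle and 10704 and 9122 with cortisol in WT on day 1, and 18166 and 37956 with vehicle and 29419 and 29419 with cortisol on day 2. Its klf9-/- values were 29419 and 16883 with vehicle and 9122 and 15582 with cortisol on day 1, and 47665 and 37956 with vehicle and 29419 and 37956 with cortisol on day 2. Vehicle lay above cortisol on day 1 in both genotypes. The fourth member, crybb1l2, measured 14830 and 9993 with vehicle against 5304 and 4958 with cortisol in WT on day 1, and 12084 and 18160 against 10699 and 14044 on day 2.

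**Figure D3:**
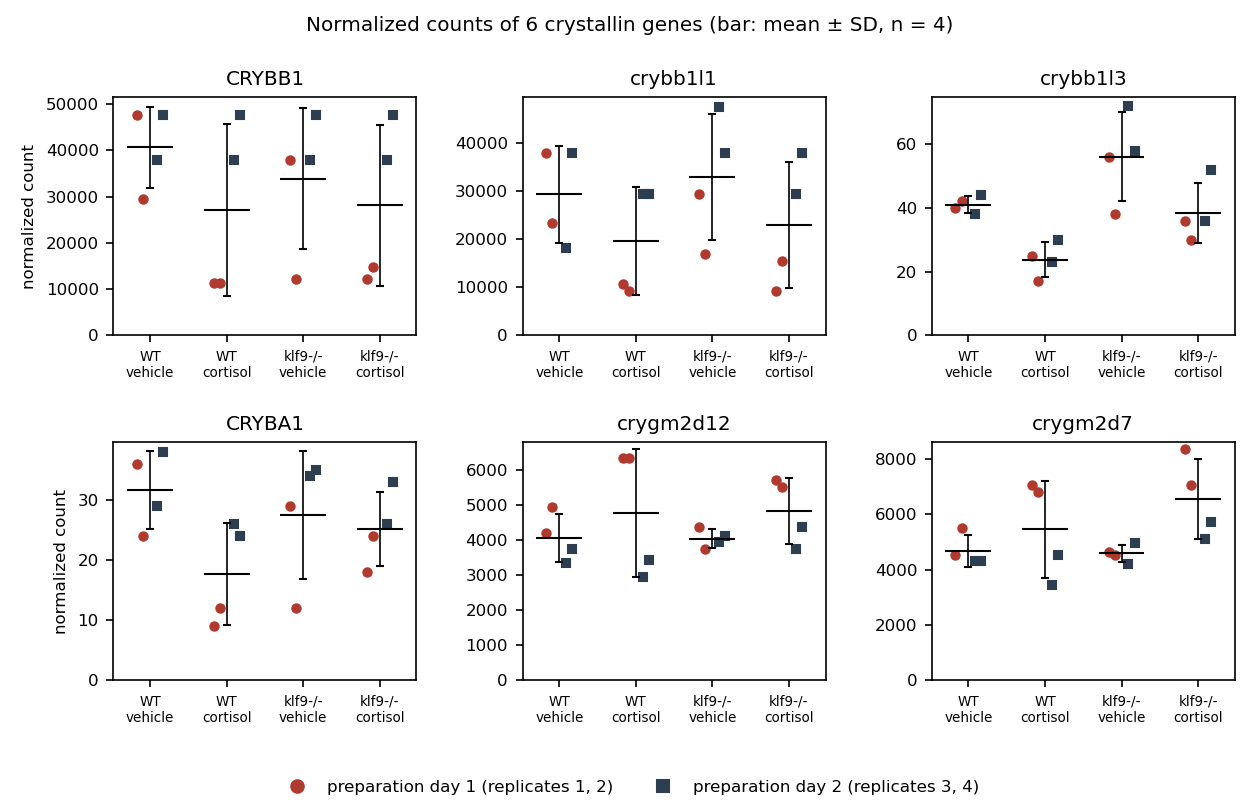
Points are the normalized counts of 6 crystallin genes in the 16 samples (circles, preparation day 1; squares, preparation day 2), with the mean and SD of each condition (n = 4) in black. CRYBB1 is at or below 14834 in the 4 cortisol-treated samples of day 1 and in replicate 2 of vehicle-treated klf9-/- larvae, and the crygm2d12 values of 6365 in both day 1 samples of cortisol-treated WT are its highest.

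Acidic beta crystallins followed the same order in WT. The gene cryba1l2 (ENSDARG00000014803) measured 308, 205, 190 and 311 with vehicle and 106, 113, 174 and 224 with cortisol, with a log2 difference of -0.75 (SE 0.24, limma adjusted p = 0.061). Only the day 1 samples were apart. The gene cryba1l1 (ENSDARG00000032929) measured 11406, 12084, 10699 and 13024 with vehicle and 7868, 6552, 9118 and 9993 with cortisol in WT. Those groups did not overlap, and the log2 difference was -0.51 (SE 0.23, limma adjusted p = 0.13). The klf9-/- values of cryba1l1 were 13024, 4654, 10699 and 13024 with vehicle and 8730, 10699, 12084 and 14044 with cortisol, where replicate 2 of the vehicle group was the lowest of all. Without that sample the WT difference of cryba1l1 had an adjusted p of 0.040 by limma, with an SE of 0.13 in place of 0.23. The 2 genes that the name table gives as CRYBA2 differed: ENSDARG00000030349 had a WT log2 difference of -0.42 (SE 0.17, limma adjusted p = 0.11) and ENSDARG00000041925 one of -0.05 (SE 0.20, limma adjusted p = 0.88).

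The alpha crystallins are chaperone genes. CRYAA (ENSDARG00000053502), which is largely restricted to the lens, measured 694, 471, 357 and 599 with vehicle and 292, 280, 392 and 496 with cortisol in WT, with a log2 difference of -0.53 (SE 0.24, limma adjusted p = 0.13). The day 1 samples were apart and the day 2 samples overlapped. CRYAA measured 466, 301, 626 and 526 with vehicle and 323, 256, 436 and 582 with cortisol in klf9-/- larvae. CRYAB (ENSDARG00000101380), which is also expressed in muscle and other tissues, measured 15, 22, 19 and 15 with vehicle and 16, 24, 15 and 12 with cortisol in WT, and 23, 23, 19 and 21 with vehicle and 22, 28, 20 and 16 with cortisol in klf9-/- larvae. Its groups overlapped in both genotypes. CRYAB had log2 differences of -0.11 (SE 0.19, limma adjusted p = 0.70) in WT and -0.02 (SE 0.19, limma adjusted p = 0.95) in klf9-/- larvae.

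Because cortisol and vehicle seemed to differ by preparation day, the cortisol difference on day 1 was tested against that on day 2 in a model with 8 means, 1 per condition and day. In WT, 1 of the 49 crystallins was called higher on day 1 and 2 were called lower, with 7.83% and 8.31% of all genes called in those directions. CRYBB1 had a day 1 minus day 2 difference of -1.71 on the log2 scale (SE 0.55, limma adjusted p = 0.049), and crybb1l1 one of -1.76 (SE 0.50, limma adjusted p = 0.034). The gene called in the opposite direction was crygm2d12, at 0.64 (SE 0.16, limma adjusted p = 0.022). These calls depended on single samples. That of CRYBB1 was lost in 13 of the 16 fits that left out 1 sample (limma adjusted p from 0.0084 to 0.19), that of crybb1l1 in 6 (0.012 to 0.14) and that of crygm2d12 in 5 (0.0057 to 0.091). The number called ran from 0 to 8 when 1 sample was left out: it was 0 without replicate 1 of vehicle-treated WT or replicate 1, 2 or 3 of cortisol-treated WT, 1 without replicate 3 of vehicle-treated WT and 8 without replicate 2 of vehicle-treated WT. Shares of all genes called in these fits are not given, so the counts have no background beside them. For klf9-/- larvae 0 were called by limma, and the background was 0.0279% higher and 0.139% lower. An unadjusted p under 0.05 was found for 15.0% of all genes tested and for 3 of the 49 crystallins. The median of these klf9-/- differences was 0.17 over the 49 genes, with 14 negative, and -0.06 over the 11 beta genes, with 6 negative. Without replicate 2 of vehicle-treated klf9-/- larvae, that condition has 1 sample on day 1. The medians were then -0.19, with 33 negative, and -0.55, with 11 negative. The klf9-/- result thus rested on this sample.

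Fitted on the day 1 samples alone, cortisol against vehicle in WT gave 5 crystallins called higher and 8 called lower by limma, where 14.9% of all genes were called higher and 15.6% lower. The 8 lower genes were all 4 basic beta genes, the acidic beta genes cryba1l2, CRYBA1 and cryba1b, and CRYAA. The 5 higher genes were crygm2d12, crygm2d7, crygm2d9, crygm2e and crybg1b. The beta family accounted for 7 of the 8 lower genes, although the list of 13 as a whole was close to the background share. The day 1 log2 differences in WT ranged from -1.71 to 0.05 over the beta genes and from -0.85 to 0.88 over the gamma M genes. On day 2 alone 0 crystallins were called by limma, 6 had an unadjusted p under 0.05, and 1.58% of all genes were called higher and 0.116% lower. On that day the median was -0.23 and 43 of the 49 differences were negative, including all 21 crygm2d genes.

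**Figure D4:**
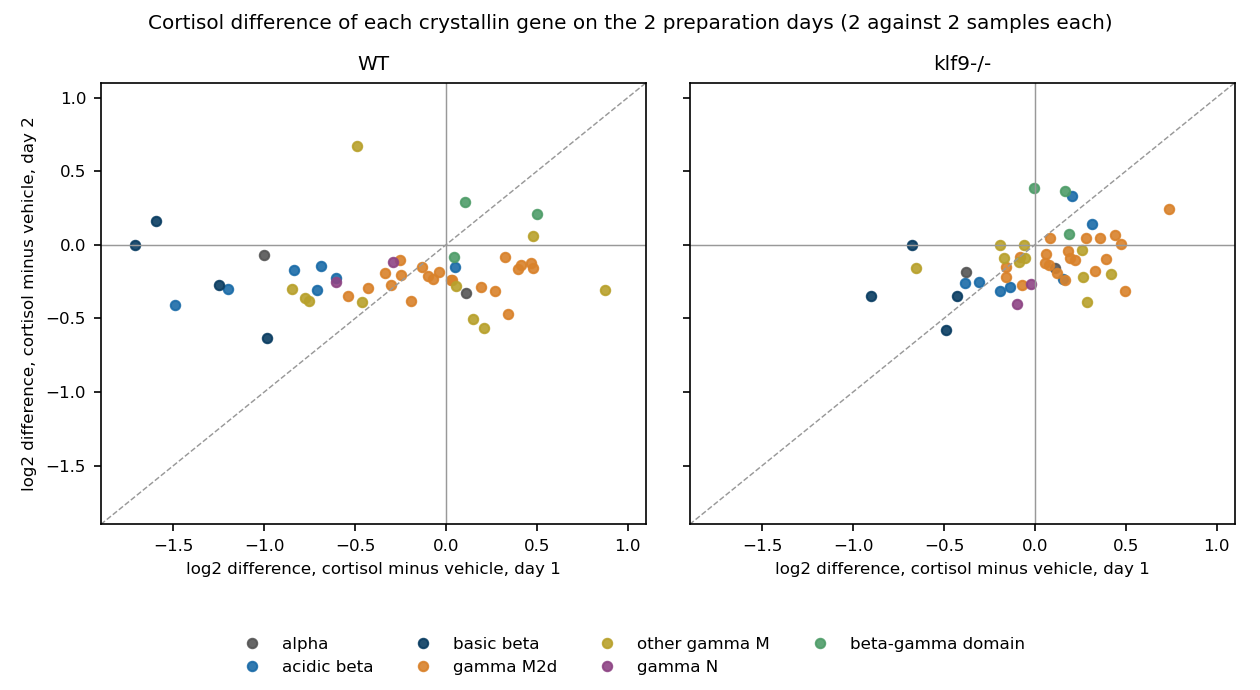
Each point is 1 crystallin gene, with the log2 difference of cortisol minus vehicle on day 1 on the x axis and on day 2 on the y axis, for WT (left) and klf9-/- (right). In WT the beta genes extend to -1.71 on day 1 while no gene is below -0.64 on day 2, and the crygm2d genes spread along the x axis from -0.54 to 0.48.

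Most gamma M crystallins are encoded next to each other. In the RefSeq gene list 43 of the 49 genes were found by symbol, 29 of them on chromosome 9, where the 21 crygm2d genes lie side by side with no other crystallin of the list between them. Such tandem copies are usually similar in sequence, so reads may be divided between them by the counting and the levels of single copies are uncertain. Within this cluster the day 1 log2 differences in WT ran from -0.54 in crygm2d3 to 0.48 in crygm2d12, with 10 positive and 11 negative. Genes of either sign were neighbours: crygm2d9, crygm2d4 and crygm2d7 lie in a row at 0.41, 0.39 and 0.47, and crygm2d3 follows at -0.54. On the klf9-/- side the same 4 genes were at 0.44, 0.36, 0.74 and -0.07 on day 1.

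The gene crygm2d12 (ENSDARG00000069801) measured 4202, 4958, 3366 and 3752 with vehicle and 6365, 6365, 2958 and 3438 with cortisol in WT. Cortisol lay above vehicle on day 1, and the treatments overlapped on day 2. The klf9-/- values of crygm2d12 were 4380, 3752, 3946 and 4128 with vehicle and 5729, 5515, 3752 and 4380 with cortisol, and again only day 1 was apart. In the same cluster, crygm2d7 (ENSDARG00000076572) measured 4654, 4538, 4202 and 4958 with vehicle and 8350, 7040, 5090 and 5729 with cortisol in klf9-/- larvae, which did not overlap. The log2 difference was 0.49 (SE 0.14), just outside the threshold (limma adjusted p = 0.056). In WT crygm2d7 measured 4538, 5515, 4300 and 4300 with vehicle and 7040, 6814, 3438 and 4538 with cortisol, with a log2 difference of 0.17 (SE 0.14, limma adjusted p = 0.41). Also in the cluster, crygm2d20 (ENSDARG00000091148) measured 10699, 10699, 9630 and 13024 with vehicle and 14044, 13024, 6552 and 9993 with cortisol in WT. Its log2 differences were -0.07 (SE 0.27, limma adjusted p = 0.89) in WT and 0.09 (SE 0.27, limma adjusted p = 0.85) in klf9-/- larvae.

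Outside the cluster, crygmx (ENSDARG00000053862) had the largest WT cortisol difference of the gamma M genes. It measured 2486, 1896, 1545 and 2486 with vehicle and 1288, 1130, 1400 and 1802 with cortisol, with a log2 difference of -0.58 (SE 0.22, limma adjusted p = 0.093). The klf9-/- values of crygmx were 2176, 1025, 2118 and 2340 with vehicle and 1256, 1400, 1921 and 2280 with cortisol, which overlapped on both days. Of the 2 gamma N genes, a family with features of both beta and gamma crystallins, one (CRYGN, ENSDARG00000030411) measured 18166, 14834, 14050 and 18166 with vehicle and 12088, 9634, 12088 and 14834 with cortisol in WT. Its log2 difference was -0.43 (SE 0.21, limma adjusted p = 0.17). The other CRYGN gene (ENSDARG00000102129) had one of -0.21 (SE 0.18, limma adjusted p = 0.45), with all its 16 values between 75 and 146.

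The crybg genes did not pass the test with cortisol in WT. There, crybg1b (ENSDARG00000006060) measured 398, 534, 490 and 436 with vehicle and 608, 702, 530 and 536 with cortisol, with a log2 difference of 0.35 (SE 0.13, limma adjusted p = 0.077). The cortisol values were above the vehicle values except that replicate 3 with cortisol, at 530, was below replicate 2 with vehicle. The paralog crybg1a (ENSDARG00000031782) measured 932, 1007, 700 and 653 with vehicle and 1044, 1037, 852 and 802 with cortisol in WT, and 872, 985, 702 and 672 with vehicle and 1108, 975, 996 and 786 with cortisol in klf9-/- larvae. Its log2 differences were 0.20 (SE 0.09, limma adjusted p = 0.13) and 0.27 (SE 0.09, limma adjusted p = 0.072). For crybgx (ENSDARG00000036140) they were -0.02 (SE 0.21, limma adjusted p = 0.96) and 0.13 (SE 0.21, limma adjusted p = 0.71).

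In klf9-/- larvae over both days, 0 crystallins were called by limma for cortisol against vehicle, where 2.31% of all genes were called higher and 2.48% lower. An unadjusted p under 0.05 was found for 28.0% of all genes tested and for 3 of the 49 crystallins. The median log2 difference was -0.03, against -0.01 over all genes. The 4 basic beta genes again had negative differences, with a median of -0.46, and the 21 crygm2d genes had a median of 0.06. Without replicate 2 of vehicle-treated klf9-/- the median of the 49 genes was -0.22, that of the basic beta genes -0.67 and that of all 11 beta genes -0.45, with 40 of the 49 differences negative and still 0 called (10 with an unadjusted p under 0.05). The size of the cortisol difference in klf9-/- larvae thus rested on this sample.

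Whether the response to cortisol differed between genotypes was tested as an interaction, the WT difference minus the klf9-/- difference. No crystallin was called, 0 of 49 by limma, with 0.167% of all genes called higher and 0% lower. An unadjusted p under 0.05 was found for 5.73% of all genes tested and for 2 crystallins. These were CRYBA1 at -0.91 (SE 0.38, limma adjusted p = 0.82) and cryba1l1 at -0.73 (SE 0.32, limma adjusted p = 0.82). The median over the 49 genes was -0.16 with 45 negative, and without replicate 2 of vehicle-treated klf9-/- it was -0.004 with 25 negative. Without that sample 1 crystallin had an unadjusted p under 0.05.

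Loss of klf9 itself gave no call among the crystallins in the comparisons over all 16 samples. These comparisons share their groups with those of cortisol, so a low or high group enters both. With vehicle, 0 of 49 were called by limma, with 0.218% of all genes called higher and 0.367% lower. An unadjusted p under 0.05 was found for 12.8% of all genes tested and for 2 of the 49 crystallins. The median was -0.03, and it was 0.17 without replicate 2 of the klf9-/- group, where 44 of 49 differences were positive. The days disagreed in sign. The median of klf9-/- against WT with vehicle was -0.33 on day 1, with 40 negative, and 0.24 on day 2, with 45 positive. The day 1 value includes replicate 2, which is 1 of only 2 klf9-/- samples there. Crystallin sums on day 1 were 263535 and 146254 in klf9-/- and 283203 and 236138 in WT, so replicate 1 lay between the WT samples. With cortisol, 0 were called by limma, with 0.618% of all genes called higher and 1.46% lower. There, 12.7% of all genes tested and 5 of the 49 crystallins had an unadjusted p under 0.05. That median was 0.15 against 0.02 over all genes, with 43 of 49 differences positive. By day it was 0.00 on day 1 and 0.36 on day 2, where 47 were positive. Without replicate 2 of vehicle-treated klf9-/- larvae 1 gene was called, crybb1l3, at an unchanged log2 difference of 0.69 (SE 0.17, limma adjusted p = 0.048). The gene crygm3 (ENSDARG00000078189) measured 3, 5, 3 and 6 in cortisol-treated WT and 7, 22, 7 and 10 in cortisol-treated klf9-/- larvae, which did not overlap, with a log2 difference of 1.31 (SE 0.37, limma adjusted p = 0.093). These counts are low, and the size of the difference depended on the setting. It ran from 0.97 to 1.57 with 1 sample left out and from 0.55 to 1.66 over the other alternatives. With vehicle crygm3 measured 5, 9, 5 and 6 in WT and 14, 12, 7 and 10 in klf9-/- larvae.

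Preparation day was the factor with the most calls. Between day 2 and day 1, 14 of the 49 crystallins were called higher on day 2 and 8 lower, where 30.3% of all genes were called higher and 32.8% lower. Of the 14 higher, 9 were beta crystallins, among them CRYBB1 at 1.18 on the log2 scale (SE 0.25, limma adjusted p = 0.00066) and CRYBA4 at 0.56 (SE 0.13, limma adjusted p = 0.0017). This day term is shared by all 4 conditions, and the conditions differed. CRYBB1 in vehicle-treated WT measured 47665 and 29419 on day 1 and 37956 and 47665 on day 2, which overlapped. In cortisol-treated WT it measured 11412 and 11412 on day 1 and 37956 and 47665 on day 2. The summed beta crystallins of vehicle-treated WT overlapped between the days too, at 146087 and 103980 against 104346 and 151973. In the other conditions the beta sums of the days did not overlap. They were 58936 and 55308 against 109644 and 132659 in cortisol-treated WT. In klf9-/- larvae they were 125887 and 56582 against 149683 and 153323 with vehicle, and 57952 and 71882 against 123761 and 150871 with cortisol. The 8 lower genes were 5 crygm2d genes, CRYAB, crybg1a and crybg1b, with crygm2d12 at -0.46 (SE 0.11, limma adjusted p = 0.0015) and crybg1a at -0.38 (SE 0.06, limma adjusted p = 7.4e-05). The other 2 beta genes did not pass, cryba1l1 at 0.36 (SE 0.16, limma adjusted p = 0.059) and CRYBA2 ENSDARG00000041925 at -0.14 (SE 0.14, limma adjusted p = 0.42), and the crygm2d genes that were called moved both ways, 1 higher and 5 lower. Without replicate 2 of vehicle-treated klf9-/- larvae, 9 crystallins were called higher and 9 lower, with 8 beta genes among the higher. The share of all genes called in that fit is not given.

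Photoreceptor and body surface genes were summed in the same samples. Of 20 photoreceptor symbols 15 were found, as 18 genes, and none was at 0 in any sample. Their summed normalized counts ran from 45944 to 100858 in vehicle-treated WT, from 22467 to 88950 in cortisol-treated WT, from 55723 to 107513 in vehicle-treated klf9-/- and from 25705 to 101758 in cortisol-treated klf9-/- larvae. In WT on day 1 the photoreceptor sums were 80176 and 45944 with vehicle and 25018 and 22467 with cortisol, and on day 2 they were 88928 and 100858 with vehicle and 88204 and 88950 with cortisol. For cortisol, 4 of the 18 were called lower in WT, against 3.99% of all genes tested, and 4 in klf9-/- larvae, against 2.48%, and 0 higher. They included opn1lw2, a red cone opsin, at -0.96 (SE 0.20, limma adjusted p = 0.015) in WT and -1.05 (SE 0.20, limma adjusted p = 0.032) in klf9-/- larvae, and NR2E3, a photoreceptor nuclear receptor, at -0.97 (SE 0.22, limma adjusted p = 0.021) and -0.86 (SE 0.22, limma adjusted p = 0.043). The 12 genes of the cornea and epidermis list had sums in the opposite order in WT on day 1, at 352768 and 426062 with vehicle and 519876 and 519236 with cortisol. On day 2 the treatments overlapped, at 452249 and 373020 with vehicle and 372313 and 375133 with cortisol. The keratin gene krt4 measured 187032 in all 16 samples, so that part of each epidermal sum was constant. The epidermal sums ran from 354020 to 447505 in vehicle-treated and from 452620 to 559534 in cortisol-treated klf9-/- larvae. The part of these tissues in the crystallin result was not tested. In replicate 2 of vehicle-treated klf9-/- larvae the photoreceptor sum was 55723 and the epidermal sum 423965, close to the 59108 and 447505 of replicate 1 from the same day. Its crystallin sum was 146254 against 263535 in replicate 1. Sums of the lens lists described next were also the lowest of their condition in replicate 2, and so was the photoreceptor sum. Lens membrane and cytoskeleton genes summed to 3468 there against 4793 in replicate 1, and lens transcription factors to 2160 against 2496. The 2 day 1 samples of vehicle-treated WT also differed in these sums. They were at 4744 and 4101 for lens membrane and cytoskeleton genes and at 2609 and 2097 for lens transcription factors.

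Lens genes outside the crystallins changed in part. Of the 9 lens transcription factor genes found, 3 were called lower with cortisol in WT, against 3.99% of all genes tested, and 0 higher, against 4.66%: MAFA, whose family activates crystallin genes, at -0.59 (SE 0.15, limma adjusted p = 0.027), pitx3, which is needed for lens development, at -0.40 (SE 0.11, limma adjusted p = 0.041), and meis2b at -0.49 (SE 0.13, limma adjusted p = 0.033). MAFA measured 321, 256, 305 and 397 with vehicle and 134, 156, 311 and 294 with cortisol in WT, apart on day 1 and overlapping on day 2. Both pitx3 and meis2b act in other tissues too. In klf9-/- larvae 0 of the 9 were called lower and 1 higher, against 2.48% and 2.31% of all genes tested, namely mafbb at 0.56 (SE 0.13, limma adjusted p = 0.037). The median log2 difference of the 9 genes was nevertheless negative in both genotypes. It was -0.40 in WT and -0.32 in klf9-/- larvae, with 8 negative and 1 positive in each. The 9 genes stand for 8 of the 17 symbols of this list. The lens membrane and cytoskeleton list had 13 of 27 symbols found. With cortisol in WT, 9 of the 13 genes tested had negative and 4 had positive differences. Their median was -0.24, against -0.03 over all genes tested. In klf9-/- larvae 8 were negative and 5 positive, with a median of -0.08. VIM, an intermediate filament gene of many tissues, was the only call of the cortisol comparisons, at 0.27 (SE 0.08, limma adjusted p = 0.045) with cortisol in WT. The summed lens membrane and cytoskeleton genes ran from 3223 to 4744 in vehicle-treated WT, 3306 to 3831 in cortisol-treated WT, 3468 to 4793 in vehicle-treated klf9-/- and 3858 to 4709 in cortisol-treated klf9-/- larvae, and these ranges overlapped. A list of 13 genes held small heat shock genes, the family of the alpha crystallins, together with other heat shock and stress genes. From this list 2 were called lower with cortisol in WT, against 3.99% of all genes tested, and neither is a small heat shock gene. They were hsp70l at -0.82 (SE 0.11, limma adjusted p = 0.00042) and hsp90aa1.1 at -0.78 (SE 0.14, limma adjusted p = 0.0071). The latter, hsp90aa1.1, was also called lower in klf9-/- larvae at -0.55 (SE 0.14, limma adjusted p = 0.044).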

How the data were processed

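RNA was measured by single-end RNA-seq in 16 samples. The authors trimmed reads with Trimmomatic 0.38, aligned them with STAR 2.6.1b to the zebrafish genome and Ensembl 93 annotation, estimated gene counts with RSEM 1.3.0 and normalized them with EDASeq in R 3.6.1 for GC content and by full quantiles between samples. The deposited values are log2 of these normalized counts plus 0.1. Normalized values are not counts, so limma 3.58.1 (R 4.3.3, eBayes with trend, two-sided) was fitted to the log2 values with a mean per condition and preparation day as a covariate, over 21511 genes whose mean reached 5. Depth is unknown, and the number of replicates limits the precision. On simulated data with known changes in the WT cortisol comparison (21511 genes), 74% of genes changed by 1 and 97% of those changed by 2 on the log2 scale were recovered. Gene symbols came from a name table that pairs the Ensembl identifiers with symbols, and neighbours from the RefSeq gene list.

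The crystallin rule and the other gene lists were chosen with earlier results of these data known. Named crystallins were those called in any comparison other than that of the days, plus, in each subfamily, the one with the highest mean and the one with the largest difference in either cortisol comparison or in klf9-/- against WT with vehicle; cryba1b, CRYBA2, CRYBA4, crybb1l2, crygm2e and further crygm2d genes were named after their values were seen. From other lists up to 4 called genes could be named.

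Replicate numbers were checked as pairs: same-numbered samples deviated from their condition means with correlations of 0.45 in the median (24 pairs, -0.06 to 0.68), and of 0.00 (-0.10 to 0.11) once the day was taken out, so the numbers carried the preparation day. Alternatives were a mean of at least 75, every gene that varied, 10 in place of 0.1 added, median centring, no day, replicate number as a block, only the 8 samples compared, each day alone, a mean per condition and day, no trend, and each of the 16 samples left out. No sequences are shown.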

Additional observations from a re-analysis of the deposited data

Results flagged for a closer look

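Of 76 groups of 4 samples examined, in which chance alone would mark about 1 in 20, 2 held a sample far from the others. Both were replicate 2 of vehicle-treated klf9-/- larvae: crygm2d20 measured 5090 there against 12084 to 13024 in the other replicates of that condition, and crygmx measured 1025 against 2118 to 2340.

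For 3 genes the cortisol difference in WT passed the test of day 1 against day 2, and each of these calls was lost without some single samples. The difference on day 1 minus that on day 2 was -1.76 for crybb1l1 (limma adjusted p = 0.034), -1.71 for CRYBB1 (limma adjusted p = 0.049) and 0.64 for crygm2d12 (limma adjusted p = 0.022), each on the log2 scale. The call of crybb1l1 was lost in 6 of the 16 fits that left out 1 sample and with no trend (limma adjusted p = 0.067), that of CRYBB1 in 13, with no trend (limma adjusted p = 0.089) and with every gene that varied (limma adjusted p = 0.055), and that of crygm2d12 in 5.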

How the results depend on the processing

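The count of crystallins called for cortisol in WT, 2 as reported, was 0 with a mean of at least 75, which leaves both called genes untested, with no day term, with only the 8 samples compared and on day 2 alone, 1 with no trend, 6 with 8 separate means (condition by day), and 13 on day 1 alone. With replicate number as a block it was 1. Leaving out 1 sample gave 0 to 13: 13 without replicate 3 of vehicle-treated WT, and 0 without replicate 1 of vehicle-treated WT or replicate 2 of cortisol-treated WT. The WT median log2 difference ranged from -0.29 to -0.11 over those fits. On day 1 alone 14.9% of all genes were called higher and 15.6% lower, against 4.66% and 3.99% as reported. For this comparison the share of all genes called is given only for the fit as reported and for each day alone. Other counts of calls under alternatives, here and below, have no such background beside them and are not read as results about crystallins.

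For cortisol in klf9-/- larvae the count, 0 as reported, was 1 with a mean of at least 75, with only the 8 samples compared and on day 1 alone, 2 with 8 separate means, and 0 to 1 with a sample left out. For klf9-/- against WT with cortisol it was 1 under the replicate block, 1 with only the 8 samples compared, and 0 to 1 with a sample left out, and the median was 0.36 on day 2 alone. The day 1 minus day 2 count in WT, 3 as reported, was 1 with no trend and 0 to 8 with a sample left out, and its median ran from -0.22 to 0.21. With a sample left out, medians of uncalled comparisons also changed sign: from -0.22 to 0.04 for cortisol in klf9-/- larvae, from -0.17 to 0.17 for klf9-/- against WT with vehicle, and from -0.19 to 0.49 for day 1 minus day 2 in klf9-/- larvae. For the 18 named genes, 3230 of 3514 alternative values kept their direction and their side of the threshold, 91 lost and 39 gained a call, 8 were exactly 0 and 146 had the opposite sign. Of those 146, 0 were called by limma either as reported or under the alternative. The cause of the other shifts was not tested. What limits the results is 2 samples per condition and day, the coarse steps of abundant genes and the similar copies.

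The opposite signs, all in differences that did not pass the test, were these. On day 1 alone, the difference for klf9-/- against WT with vehicle was -0.17 in crygm2d12 and -0.42 in crybb1l1. For klf9-/- against WT with cortisol it was -0.18 in crygm2d12, -0.26 in crybgx, -0.035 in crybg1b, -0.0016 in crybg1a, -0.29 in crygm2d20 and -0.017 in CRYGN ENSDARG00000030411. For the interaction it was 0.0082 in crygm2d12. For cortisol in klf9-/- larvae it was 0.15 in CRYBA1, 0.11 in CRYAB and -0.0024 in crybg1b. For cortisol in WT it was 0.11 in CRYAB, 0.045 in crybgx and 0.34 in crygm2d20. On day 2 alone, the difference for cortisol in WT was -0.16 in crygm2d12, 0.16 in crybb1l1 and -0.12 in crygm2d7. For the interaction it was 0.51 in crybb1l1, 0.12 in CRYAA, -0.18 in crybg1b, 0.15 in CRYGN ENSDARG00000030411 and 0.15 in CRYGN ENSDARG00000102129. For klf9-/- against WT with vehicle it was 0.055 in CRYBA1, 0.44 in cryba1l2, 0.31 in CRYAA, 0.25 in crybgx, -0.11 in crybg1b, 0.023 in crybg1a, 0.22 in crygm2d20, 0.18 in crygmx, 0.086 in crygm2d7, 0.37 in CRYGN ENSDARG00000030411 and 0.24 in CRYGN ENSDARG00000102129. For cortisol in klf9-/- larvae it was -0.31 in crygm2d20. For klf9-/- against WT with cortisol it was 0.096 in CRYGN ENSDARG00000102129. With 10 added in place of 0.1, the difference for cortisol in klf9-/- larvae was 0.011 in crygm3. For day 1 minus day 2 in klf9-/- larvae it was 0.022 in crygm3.

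Leaving out 1 sample changed the sign of 52 differences, some of them among those above, given as the lowest and highest over the 16 fits. For day 1 minus day 2 in klf9-/- larvae the ranges were -0.19 to 0.37 in crybb1l3, -0.24 to 1.02 in CRYBA1, -1.5 to 0.15 in CRYBB1, -0.57 to 0.91 in cryba1l1, -0.59 to 0.35 in cryba1l2, -0.51 to 0.12 in CRYAA, -0.42 to 0.64 in crybgx, -0.63 to 0.46 in crygmx, -0.88 to 0.76 in crygm3, -0.14 to 0.76 in CRYGN ENSDARG00000030411 and -0.070 to 0.56 in CRYGN ENSDARG00000102129. For klf9-/- against WT with vehicle the ranges were -0.088 to 0.13 in crygm2d12, -0.26 to 0.47 in crybb1l1, -0.52 to 0.017 in cryba1l1, -0.31 to 0.20 in cryba1l2, -0.42 to 0.087 in CRYAA, -0.20 to 0.19 in crybgx, -0.064 to 0.025 in crybg1a, -0.25 to 0.25 in crygm2d20, -0.40 to 0.057 in crygmx, -0.13 to 0.057 in crygm2d7, -0.23 to 0.17 in CRYGN ENSDARG00000030411 and -0.29 to 0.063 in CRYGN ENSDARG00000102129. For klf9-/- against WT with cortisol the ranges were -0.054 to 0.18 in crygm2d12, -0.032 to 0.30 in CRYBB1, -0.043 to 0.23 in CRYAA, -0.10 to 0.16 in crybgx, -0.067 to 0.078 in crybg1b, -0.040 to 0.11 in crybg1a, -0.20 to 0.19 in crygm2d20 and -0.15 to 0.022 in CRYGN ENSDARG00000102129. For the interaction the ranges were -0.18 to 0.060 in crygm2d12, -0.49 to 0.24 in crybb1l1, -0.23 to 0.017 in CRYAB, -0.27 to 0.11 in crybgx, -0.13 to 0.020 in crybg1a, -0.31 to 0.20 in crygm2d20, -0.33 to 0.064 in CRYGN ENSDARG00000030411 and -0.23 to 0.12 in CRYGN ENSDARG00000102129. For cortisol in klf9-/- larvae the ranges were -0.30 to 0.16 in CRYBA1, -0.086 to 0.45 in cryba1l1, -0.11 to 0.059 in CRYAB, -0.13 to 0.25 in crybgx, -0.27 to 0.22 in crygm2d20, -0.37 to 0.030 in crygmx and -0.37 to 0.23 in crygm3. For cortisol in WT the ranges were -0.11 to 0.16 in crybgx and -0.22 to 0.18 in crygm2d20. For day 1 minus day 2 in WT the ranges were -0.15 to 0.41 in crybgx, -0.91 to 0.071 in crygm3 and -0.48 to 0.12 in CRYGN ENSDARG00000102129. For day 2 against day 1 the ranges were -0.19 to 0.12 in crygm2d20.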
